A study of Mus musculus with 2 samples.

Results

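The genes described here are Twist1 and Twist2, a pair of basic helix-loop-helix (bHLH) transcription factors, and Tcf3, Tcf4 and Tcf12, the E-proteins with which they dimerise. They are 5 of 21668 protein-coding genes on chromosomes 1 to 19 and X in GENCODE release M21 of the mouse annotation. The data were DNase-seq maps, in which the nuclease DNase I cuts DNA that is not packed into nucleosomes, so that accessible sites appear as short peaks. Promoters and enhancers are among such sites, but accessibility alone does not show that a site is in use. There were 2 libraries of 1 group, biological replicates 1 and 2, made from the facial prominences (the outgrowths that build the face) of healthy B6NCrl embryos of both sexes, pooled at day 11.5 of gestation, and the labels do not say how many embryos went into a pool. The labels give the libraries separate biosamples but 1 donor identifier, so that how independent the replicates are is not known, and they name no treatment, genotype or second condition, so that no contrast between conditions exists and n = 2 throughout. Every accessible element whose centre lay nearest to a protein-coding transcription start site of a listed gene was taken, and for Twist1 also every element inside the body of its neighbour Hdac9. This gave 330 peaks in replicate 1 and 375 in replicate 2. Of the replicate 1 peaks, 138 had a counterpart in replicate 2 and are called shared.

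Twist factors and E-proteins bind DNA as dimers on E-boxes, short sites with the letters CANNTG, and the Twist dimers favour the form CAGATG. E-proteins are broadly made and serve as partners for many tissue-specific bHLH factors, and Id proteins block them because they dimerise without binding DNA. Twist1 is needed in cranial neural crest and head mesenchyme for the face, the skull vault and its sutures, and loss of 1 copy causes craniosynostosis in humans (Saethre-Chotzen syndrome). Mutations of TCF12, which encodes the E-protein HEB, also cause craniosynostosis. Tcf3 here is the gene of E2A and Tcf4 the gene of E2-2, not the Wnt pathway factors that carry the same names in other literature. Hdac9 and Hdac4 encode class II histone deacetylases and lie next to Twist1 and Twist2, and the Hdac9 gene body is known to hold enhancers that act on Twist1.

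Replicate 1 held 209299 peaks and replicate 2 held 219061, each 150 bp wide, and 41.1% of the replicate 1 peaks had a replicate 2 peak covering 75 bp or more. Peak positions lay on a 20 bp grid. Each peak carries a strength, a whole number deposited by the authors whose unit is not stated, with a median of 16 in replicate 1 and 42 in replicate 2. Strengths were therefore read only within a library, as a value and as a percentile of that library's peaks, and the higher numbers of replicate 2 were not read as a difference in accessibility. The depth of the libraries is unknown. As a check of the tissue, the 7 facial mesenchyme markers (Alx1, Alx4, Prrx1, Msx1, Dlx5, Dlx6 and Pdgfra) all had a shared promoter peak, against 64.2% of all genes. Shared promoter peaks were also found for 3 of 6 surface ectoderm, 2 of 3 muscle, 2 of 4 endothelial and 4 of 4 neuronal markers and for 0 of 3 erythroid markers. Open promoters are common, so these counts do not show which cell types the tissue held. In a whole tissue a site open in few cells cannot be told apart from one that is weakly open in many.

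All 5 genes had a shared promoter peak, meaning a shared peak within 1 kb of a start site, against the same 64.2% of all genes. The Twist1 promoter was open in each library around its single start site. Its peak, centred 61 bp upstream, had a strength of 88 in replicate 1 (percentile 96.7) and 134 in replicate 2 (percentile 98.5). A weaker shared peak of strength 54 and 70 lay 799 bp downstream, in the coding exon. The Twist2 promoter peak, centred 31 bp upstream of its start sites, had strengths of 60 and 117 (percentiles 91.2 and 95.2), and another of 41 and 91 lay 971 bp upstream. In each library the Twist2 promoter thus ranked below that of Twist1. The peak stretches upstream of the start sites are shown because they let the Twist promoters be compared with those of their partners. They lie at chr12:33957536-33957670 (Twist1), chr1:91801356-91801460 (Twist2), chr10:80433648-80433785 (Tcf3, minus strand) and chr9:72111872-72112005 (Tcf12, minus strand) of mm10, read 5′ to 3′ along each gene, with the 5′ UTR bases left out. Capitals mark E-boxes (CANNTG), CCAAT and GGGCGG, the last 2 on either strand.
Twist1 promoter: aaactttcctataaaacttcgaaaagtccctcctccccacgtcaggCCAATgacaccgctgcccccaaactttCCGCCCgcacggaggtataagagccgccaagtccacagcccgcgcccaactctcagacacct
Twist2 promoter: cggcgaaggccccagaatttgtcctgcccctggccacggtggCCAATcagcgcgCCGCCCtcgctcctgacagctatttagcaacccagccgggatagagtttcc
Tcf3 promoter: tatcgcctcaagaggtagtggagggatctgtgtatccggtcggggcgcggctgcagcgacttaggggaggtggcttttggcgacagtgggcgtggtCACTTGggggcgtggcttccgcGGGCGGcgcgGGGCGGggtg
Tcf12 promoter: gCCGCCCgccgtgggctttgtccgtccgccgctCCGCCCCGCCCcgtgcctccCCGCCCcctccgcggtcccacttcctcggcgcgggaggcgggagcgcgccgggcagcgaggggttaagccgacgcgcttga
CCAAT, the letters that the factor NF-Y binds, stood in the peaks of Twist1 and Twist2 and in none of the 3 E-protein peaks. In the shared promoter peaks nearest to the start site of 13235 genes, 26.4% held it. GGGCGG, the letters of a GC box bound by Sp factors, was in the peak of all 5 genes and in 57.0% of the genes' peaks. Of the 5 promoter peaks, that of Tcf3 held an E-box, against 35.6% over the genes. None held CAGATG, against 4.59%. These are the peaks nearest to a start site. Over all 20 shared promoter peaks of the 5 genes, CANNTG was in 10 (50%, exact 95% interval 27.2 to 72.8, against 39.3% of all shared promoter peaks) and CAGATG in 3 (15%, 3.21 to 37.9, against 5.91%). The 3 were the Twist2 peak 971 bp upstream, the Tcf3 peak 503 bp upstream and the Tcf12 peak 134 bp upstream of the internal promoter.

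The E-protein promoters were among the strongest peaks near these genes. Tcf3 (E2A) had 3 shared peaks at its first group of start sites, with a strength of 97 in replicate 1 at 503 bp upstream (percentiles 98.0 and 98.7), 83 and 117 at 63 bp upstream and 59 and 104 at 491 bp downstream. In each library the Tcf3 peak farthest upstream was the highest of them. Tcf12 (HEB) was open at both of its promoters. The promoter of the long form had a peak of strength 94 and 133 centred 59 bp upstream (percentiles 97.6 and 98.3). The internal promoter, from which a shorter HEB protein that lacks the first part of the long form is made, had a best shared peak of 54 and 112 (percentiles 89.1 and 94.2), centred 886 bp downstream. These promoters differ in sequence: the ratio of observed to expected CpG over 1000 bp was 1.00 at the long promoter and 0.12 at the internal one. Tcf4 (E2-2), which has 8 groups of start sites when those within 1000 bp are joined, was open at 3 of them. The first group had a peak of 103 and 137 (percentiles 98.9 and 99.1), the highest promoter peak of the 5 genes in each library. The second had one of 62 and 85, the highest in replicate 1, and one of 59 and 102, the highest in replicate 2, and the seventh, deep in the gene, one of 84 and 129. The sixth group had unmatched peaks of up to 30 in replicate 1 and 69 in replicate 2, and the remaining 4 groups had no shared peak either. Together 8 of the 14 groups of start sites of the 5 genes had a shared promoter peak, against 55.1% of all such groups.

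**Figure D1:**
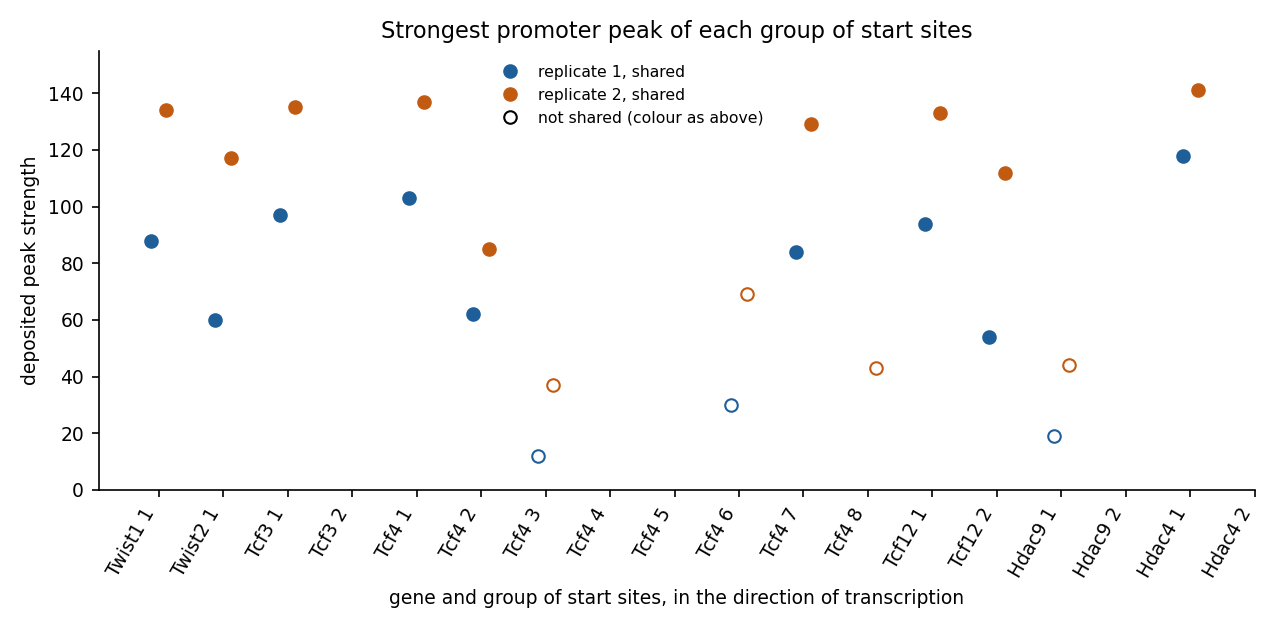
Strength of the strongest promoter peak (y axis, the authors' deposited value, not comparable between libraries) for each group of start sites (x axis), in replicate 1 (blue) and replicate 2 (orange). Filled points are shared peaks, the one highest in replicate 1 where a group has several, and open points unshared ones. The first Tcf4 group stood at 103 and 137 and the Twist2 promoter at 60 and 117, and neither group of Hdac9 start sites had a shared peak.

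Away from the promoters, 98 shared distal peaks lay nearest to the 5 genes, drawn from 227 distal peaks in replicate 1 and 266 in replicate 2. Each of the 5 genes had at least 1, against 62.7% of all genes. The counts were 27 for Twist1, 15 for Twist2, 1 for Tcf3, 39 for Tcf4 and 16 for Tcf12, and the median over all genes was 1. A gene in a wide interval collects more peaks, so each count was set beside the number that its interval (the stretch of genome nearest to its start sites) would hold at the genome-wide density of 23.9 shared distal peaks per Mb. Twist1 had 27 where 6.08 would fall at that density, a ratio of 4.44. Twist2, Tcf4 and Tcf12 had similar ratios of 2.07, 1.85 and 1.86, and Tcf3 had 1 where 1.08 would fall. In density, Twist1 stood at 106 per Mb, higher than 92.9% of genes, while Twist2 (49.4 per Mb), Tcf12 (44.5) and Tcf4 (44.2) were higher than 75.4%, 72.3% and 72.1% of genes. Tcf3, in a small interval among close neighbours, stood at 22.1 per Mb. The nearest gene need not be the one that an element acts on.

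**Figure D2:**
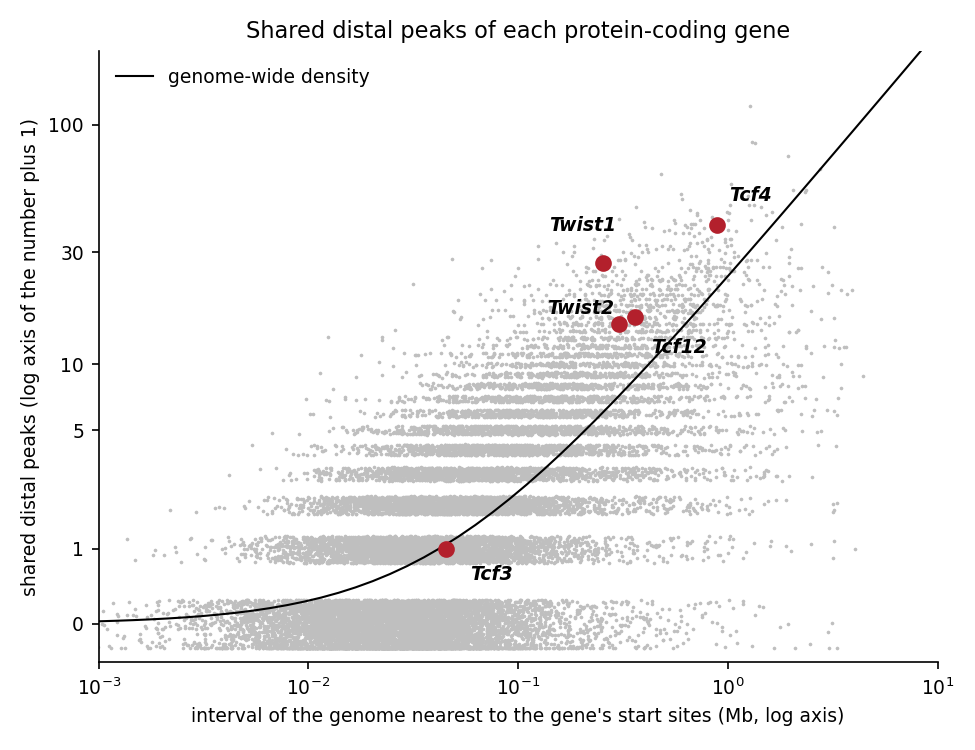
Shared distal peaks of each protein-coding gene (y axis, log axis of the number plus 1) against the size of its interval (x axis, Mb, log axis). Grey points are all genes, with a small vertical jitter, red points the 5 genes, and the line the genome-wide density of 23.9 per Mb. Twist1, with 27 peaks, stands farthest above the line of the 5, and Tcf3, with 1, lies on it.

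Many of the Twist1 elements were weak. Their strengths ran from 9 over a median of 23 to 73 in replicate 1 and from 26 over 53 to 109 in replicate 2. The median percentiles, 63.3 and 63.8, were below those of all shared distal peaks (70.7 and 72.5). Twist2 stood the other way, with median percentiles of 76.1 and 79.3 (strengths 18 to 75 and 32 to 110). Tcf4 had median percentiles of 70.7 and 73.3 and Tcf12 of 67.3 and 72.0, so that among the 4 genes with many elements Twist1 had the lowest median in each library and Twist2 the highest. When only the 50000 strongest peaks of each library were kept, 4 shared distal peaks remained for Twist1, 9 each for Twist2 and Tcf4, 5 for Tcf12 and 1 for Tcf3. Over all genes 21775 remained of 62956. The Twist1 count thus fell from 27 to 4, below those of Twist2, Tcf4 and Tcf12, so most of its count came from weaker peaks. These counts take no account of interval size. The intervals were 0.254 Mb for Twist1, 0.304 Mb for Twist2, 0.882 Mb for Tcf4 and 0.359 Mb for Tcf12. Density was not computed at this cut.

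The Twist1 elements crowded close to the gene. Of the 27, 14 lay within 10 kb of the start site (51.9%, against 26.5% of all shared distal peaks), 6 lay between 10 and 100 kb and 7 farther. Only 2 were upstream. A run of 12 lay 1739 to 9519 bp downstream of the start site, beyond or in the last exon of this short gene, with strengths of 11 to 73 in replicate 1 and 33 to 109 in replicate 2. The strongest distal element in each library, 73 and 109 (percentiles 94.3 and 93.5), was 8959 bp downstream, and its hotspot, a wider enriched region called by the authors, spanned 2413 bp in replicate 1 and 1460 bp in replicate 2 at the ceiling of the deposited −log10 q, 100. The next by rank were 49 and 91 at 1561 bp upstream and 48 and 70 at 9519 bp downstream. Then came 32 and 83 at 6439 bp downstream and 28 and 91 at 213.1 kb downstream, inside an intron of Hdac9. No shared peak nearest to Twist1 lay between 26 kb downstream and the near end of Hdac9, 89.9 kb from the start site. The strongest downstream element and the element at 6439 bp are shown because the former has no E-box and the latter has a CAGATG. They lie at chr12:33966556-33966705 and chr12:33964036-33964185 (mm10, plus strand, intergenic), with E-boxes in capitals.
Twist1 8959 bp downstream: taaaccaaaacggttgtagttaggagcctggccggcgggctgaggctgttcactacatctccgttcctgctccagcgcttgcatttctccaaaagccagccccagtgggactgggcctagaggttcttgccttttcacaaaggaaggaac
Twist1 6439 bp downstream: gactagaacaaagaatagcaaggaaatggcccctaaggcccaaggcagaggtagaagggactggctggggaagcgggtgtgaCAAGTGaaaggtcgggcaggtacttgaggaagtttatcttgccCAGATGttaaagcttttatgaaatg

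The body of Hdac9 (chr12:34047580-34917095, 869.5 kb, minus strand) held 29 shared peaks out of 83 in replicate 1 and 94 in replicate 2. Of these, 9 lay nearest to Twist1, 17 to Hdac9 and 3 to Prps1l1, and all 29 were at least 92.9 kb from the Twist1 start site. Their centres fell in introns in 27 cases, in a coding exon in 1 and in a UTR exon in 1, and 3 touched coding exons. The 9 peaks in the part next to Twist1 had strengths of 14 to 28 in replicate 1 and 26 to 91 in replicate 2. In replicate 2 those of 91 (percentile 88.1) and 72 (percentile 78.7) stood above the median percentile of all shared distal peaks. The strongest peaks of the Hdac9 body lay farther in. They had strengths of 62 and 113 at 242.6 kb from the Twist1 start site, 54 and 119 at 312.2 kb, 56 and 103 at 834.6 kb and 56 and 89 at 700.7 kb. The first and second of these were the highest in replicate 1 and in replicate 2, respectively. Hdac9 itself had no shared peak within 1 kb of its protein-coding start sites, where the strongest unmatched peaks had 19 and 44, although of the wider hotspots there 5 in replicate 1 and 2 in replicate 2 were shared. A shared peak of 53 and 88 near the far end covered the start site of a Hdac9 transcript annotated as a retained intron, so that this peak may be counted as a Hdac9 promoter rather than as a distal element. At 33.4 shared peaks per Mb, the Hdac9 body was close to the median of 31.4 over 2489 protein-coding genes of at least 100 kb, 52.7% of which had a lower density. The strongest intronic peaks of each library are shown, at chr12:34200216-34200365 and chr12:34269796-34269945 (mm10, plus strand), with E-boxes in capitals.
Hdac9 intron, 242.6 kb from Twist1: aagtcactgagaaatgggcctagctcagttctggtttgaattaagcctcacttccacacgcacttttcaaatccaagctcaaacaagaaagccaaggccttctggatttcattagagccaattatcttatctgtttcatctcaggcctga
Hdac9 intron, 312.2 kb from Twist1: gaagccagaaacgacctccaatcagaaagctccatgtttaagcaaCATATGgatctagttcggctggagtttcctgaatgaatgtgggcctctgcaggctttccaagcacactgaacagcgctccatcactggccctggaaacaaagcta
The former holds no E-box and the latter a single one.

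**Figure D3:**
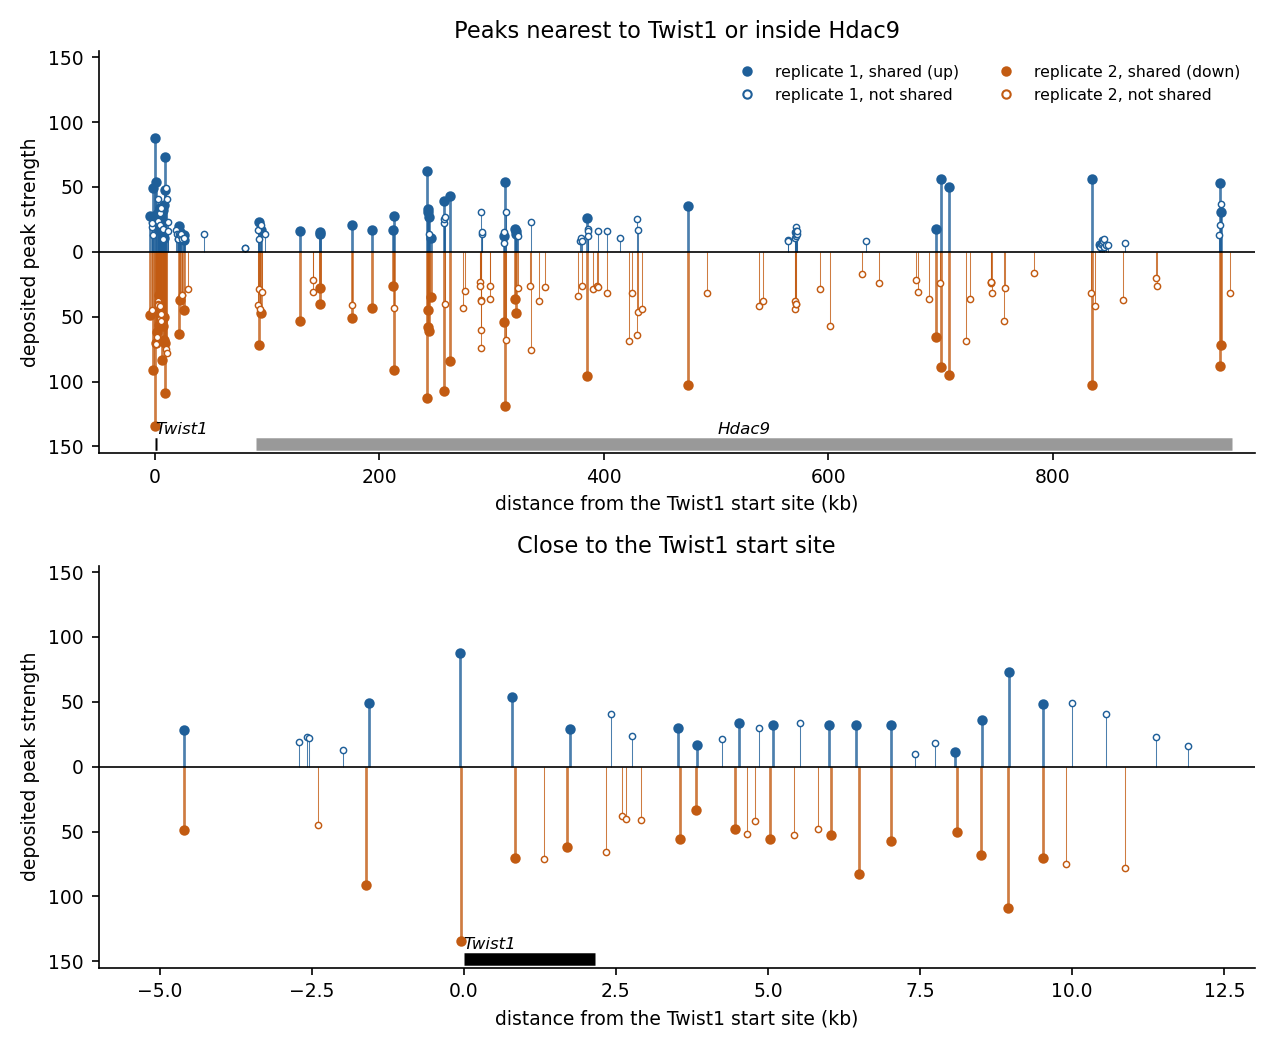
Peaks nearest to Twist1 or inside Hdac9, by distance from the Twist1 start site (x axis, kb) and deposited strength (y axis, replicate 1 upward, replicate 2 downward). Filled points are shared and open points unshared, and bars at the bottom mark the genes. The lower panel shows the run of shared peaks from 1739 to 9519 bp, which peaks at 73 and 109, and the upper panel the 29 shared peaks inside Hdac9.

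Twist2, which is made in dermis and in mesenchyme that overlaps that of Twist1, had its distal elements spread to either side. Of the 15, 6 were upstream and 9 downstream, with 3 within 10 kb, 6 between 10 and 100 kb and 6 farther. The strongest was 46.2 kb upstream, at 75 and 110 (percentiles 94.7 and 93.7), followed by 57 and 106 at 41.1 kb upstream. In each library these 2 were the highest distal peaks of the gene. The next was 44 and 105 in the Twist2 intron, 43.4 kb downstream. Farther downstream, 4 shared peaks nearest to Twist2 lay in introns of Hdac4, among them 51 and 92 at 167.7 kb and 37 and 89 at 163.2 kb. The Hdac4 body (chr1:91928779-92195699) held 13 shared peaks, 48.7 per Mb, with 73.1% of the long genes lower. Hdac4 had a strong shared promoter peak of its own, at 118 and 141. A shared peak 1420 bp downstream of the Twist2 start site (32 and 44) covered the start of the antisense transcript Gm29100, and the assay does not tell which of the genes it serves. The strongest element and the intronic one are shown because each holds CAGATG and 2 more E-boxes. They lie at chr1:91755216-91755365 (intergenic) and chr1:91844756-91844905 (mm10, plus strand), with E-boxes in capitals.
Twist2 46.2 kb upstream: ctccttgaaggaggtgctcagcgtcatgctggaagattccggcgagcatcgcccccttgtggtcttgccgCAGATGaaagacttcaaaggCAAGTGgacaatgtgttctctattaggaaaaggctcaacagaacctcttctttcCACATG
Twist2 43.4 kb downstream: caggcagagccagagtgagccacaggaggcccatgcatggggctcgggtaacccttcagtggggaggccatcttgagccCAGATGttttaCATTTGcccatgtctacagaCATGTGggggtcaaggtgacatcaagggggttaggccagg

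**Figure D4:**
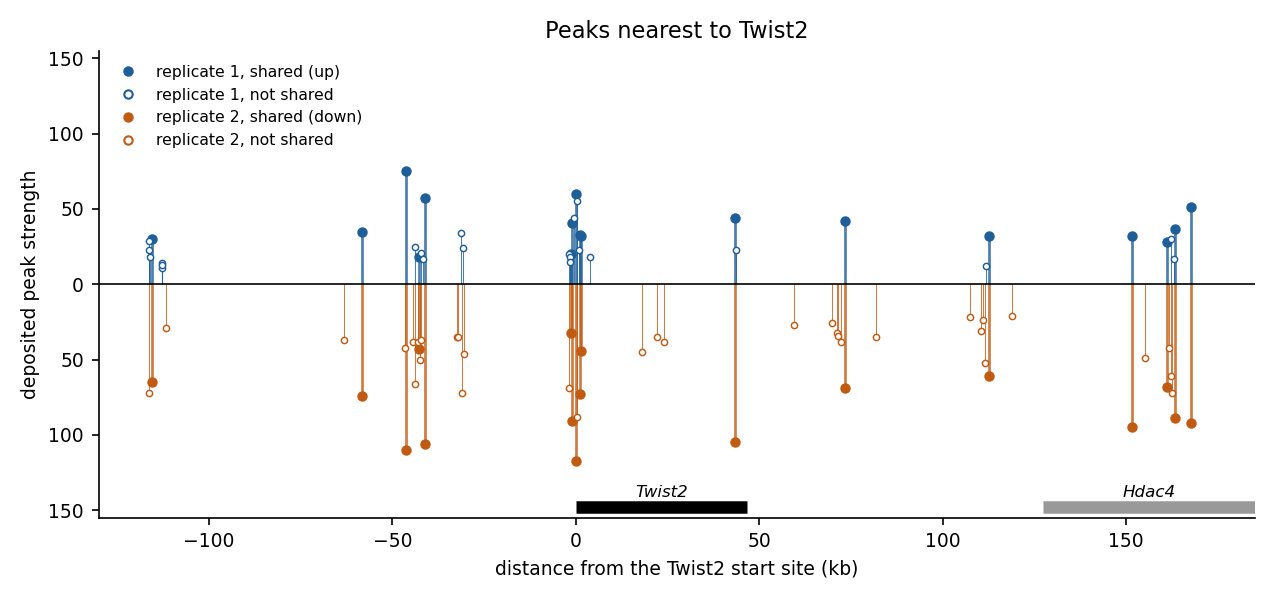
Peaks nearest to Twist2 by distance from its start site (x axis, kb) and deposited strength (y axis, replicate 1 upward, replicate 2 downward). Filled points are shared, open points unshared, and bars mark the genes. The shared peaks 46.2 and 41.1 kb upstream (75 and 110, 57 and 106) stand beside a group of 4 inside Hdac4.

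Tcf3, a compact gene on chromosome 10 (chr10:80409514-80433647), had all 4 of its replicate 1 peaks matched: the 3 at the promoter and 1 distal peak. The distal peak, 12.7 kb upstream, was strong in each library, at 67 and 98 (percentiles 93.1 and 90.6). Replicate 2 had 8 further peaks near Tcf3 that replicate 1 lacked, the strongest at 55. The distal peak is shown because it holds 3 E-boxes, a CAGATG (read here as CATCTG) and a repeated CACCTG, the form that E-protein dimers and the repressors Snai and Zeb bind. It lies at chr10:80446316-80446465 (mm10, plus strand, intergenic), with E-boxes in capitals.
Tcf3 12.7 kb upstream: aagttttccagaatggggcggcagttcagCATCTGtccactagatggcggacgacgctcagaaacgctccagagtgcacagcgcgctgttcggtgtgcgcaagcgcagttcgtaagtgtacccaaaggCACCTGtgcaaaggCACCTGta

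Tcf12 (chr9:71842688-72111871, 269.2 kb, minus strand) had 16 shared distal peaks, 12 of them in its introns and all within 80.5 kb of a start site. The strongest stood 21.4 kb upstream of the long promoter at 92 and 128 (percentiles 97.3 and 97.2), about as high in each library as the promoter itself (94 and 133), in a hotspot of 1436 bp in replicate 1 and 1374 bp in replicate 2. The second, 57 and 111, lay 7746 bp downstream of the internal promoter. Around that promoter a single hotspot of 2037 bp in replicate 1 covered 3 of the 16, and its match in replicate 2 was shorter, at 594 bp, and did not reach all of them. The 3 other elements named by rank had 34 and 84, 37 and 75 and 33 and 79. The 2 strongest are shown because one is CpG-rich with a single CAGCTG while the other holds 3 E-boxes, a CAGATG among them. They lie at chr9:72133176-72133325 (intergenic) and chr9:71888576-71888725 (intron) of mm10, plus strand. Capitals mark E-boxes and, in the second, the homeodomain core ATTA that lies 4 bases before CAGATG.
Tcf12 21.4 kb upstream: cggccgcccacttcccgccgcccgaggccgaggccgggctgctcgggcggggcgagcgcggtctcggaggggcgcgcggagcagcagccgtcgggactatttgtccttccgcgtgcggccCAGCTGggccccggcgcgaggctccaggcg
Tcf12 7746 bp downstream of the internal promoter: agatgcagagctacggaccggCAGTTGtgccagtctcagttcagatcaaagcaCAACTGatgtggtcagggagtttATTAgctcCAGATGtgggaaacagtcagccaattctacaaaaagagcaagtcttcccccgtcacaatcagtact

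Tcf4, the largest of the loci (chr18:69343356-69689079, 345.7 kb), had the most shared distal elements, 39, and they reached farthest. In all, 18 were intergenic and 21 intronic, and 17 lay over 100 kb from the nearest start site, the farthest 433.1 kb upstream. The strongest, 80 and 131 (percentiles 95.5 and 97.9), lay in an intron 2046 bp beyond the last start site, and no other distal peak of the gene passed 55 in replicate 1. Next by rank were 55 and 101 at 147.2 kb upstream and 39 and 94 at 401.1 kb upstream. Then came 35 and 102 at 433.1 kb upstream and 48 and 81 in an intron, 7293 bp beyond the fourth start-site group.

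E-boxes were common both in the distal elements of these genes and in all shared distal peaks. CANNTG was present in 73 of the 98 shared distal peaks (74.5%, exact 95% interval 64.7 to 82.8), against 62.4% of all shared distal peaks. The latter share lies below the interval, and the difference was not tested. CAGATG, searched on both strands and so also as CATCTG, was in 24 of 98 (24.5%, 16.4 to 34.2), against 18.4%, a share that lies within the interval. By gene it was in 4 of 27 peaks of Twist1, 5 of 15 of Twist2, 1 of 1 of Tcf3, 11 of 39 of Tcf4 and 3 of 16 of Tcf12. The difference between the genes was not tested, and the numbers of peaks are small. CAGCTG was in 15 of 98 (15.3%, against 14.3%) and CACCTG or CAGGTG in 14 (14.3%, against 11.7%). CATATG was in 8 (8.16%, 3.59 to 15.5, against 3.35%, just below the interval), but 4 of these 8 peaks overlapped another of them by most of their length. Peaks with 3 or more E-boxes made up 15 of 98 (15.3%, against 7.83%), and Twist2 had 5 of its 15 among them. A Twist1 peak with 3 E-boxes and one with 4, both in this count, overlapped by most of their length. These counts overlap, since each named form is also a CANNTG. The intervals cover counting error only, peaks of a locus are not independent, and the GC content, which sets how often such letters occur, had a median of 47.3% in the members' peaks against 50% in all.

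In facial mesenchyme, Twist1 is known to bind together with homeodomain factors such as Alx4 on a composite site, called Coordinator, that joins an E-box to a homeodomain core. The spacing of such a site was therefore read over all shared distal peaks, a search made after the data had been seen. Around 12902 CAGATG sites, the core TAATT began exactly 10 bases before the E-box, leaving a gap of 5 bases, at 165 sites. Over the 51 offsets scanned the median was 13 sites, and the next highest was 52 sites, at 10 bases after the start of the E-box. This composite of TAATT, any 5 bases and CAGATG, searched on either strand, was in 161 of all shared distal peaks (0.256%). It was in 0 of the 98 peaks nearest to the 5 genes, which by the limit of 3 counts allows a share of up to 3.06% and by the exact interval one of up to 3.69%, so that at this number of peaks its absence there says nothing. Inside the Hdac9 body it was in 2 of 29 shared peaks (6.90%, exact 95% interval 0.85 to 22.8). The spacing was picked from peaks that include these 2, so that their share is a description only. The 2 peaks had strengths of 43 and 84 at 263.5 kb from the Twist1 start site and 26 and 96 at 385.3 kb. Both lay nearest to a start site of Hdac9, not of Twist1. Hdac9 was 1 of 8 genes with 2 such peaks among 153 genes with any, the others being Cr2, Gm9913, Hmcn1, Klf6, Rab28, Slc14a2 and Tgfbr2. The 2 peaks are shown because they carry the composite in opposite orientations. They lie at chr12:34221056-34221205 and chr12:34342876-34343025 (mm10, plus strand), and capitals mark E-boxes and the homeodomain core.
Hdac9 intron, 263.5 kb from Twist1: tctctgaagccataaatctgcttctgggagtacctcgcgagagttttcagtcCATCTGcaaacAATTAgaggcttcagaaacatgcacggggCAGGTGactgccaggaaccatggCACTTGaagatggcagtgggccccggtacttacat
Hdac9 intron, 385.3 kb from Twist1: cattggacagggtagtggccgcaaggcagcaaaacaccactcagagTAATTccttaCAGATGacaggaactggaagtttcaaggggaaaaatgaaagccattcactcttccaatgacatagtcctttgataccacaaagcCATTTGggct
The Tcf12 peak 7746 bp downstream of the internal promoter carries a near form, ATTA and CAGATG with a gap of 4 bases, found in 217 of all shared distal peaks. It was the only one of the 98 with that form. A match of letters shows no bound factor.

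**Figure D5:**
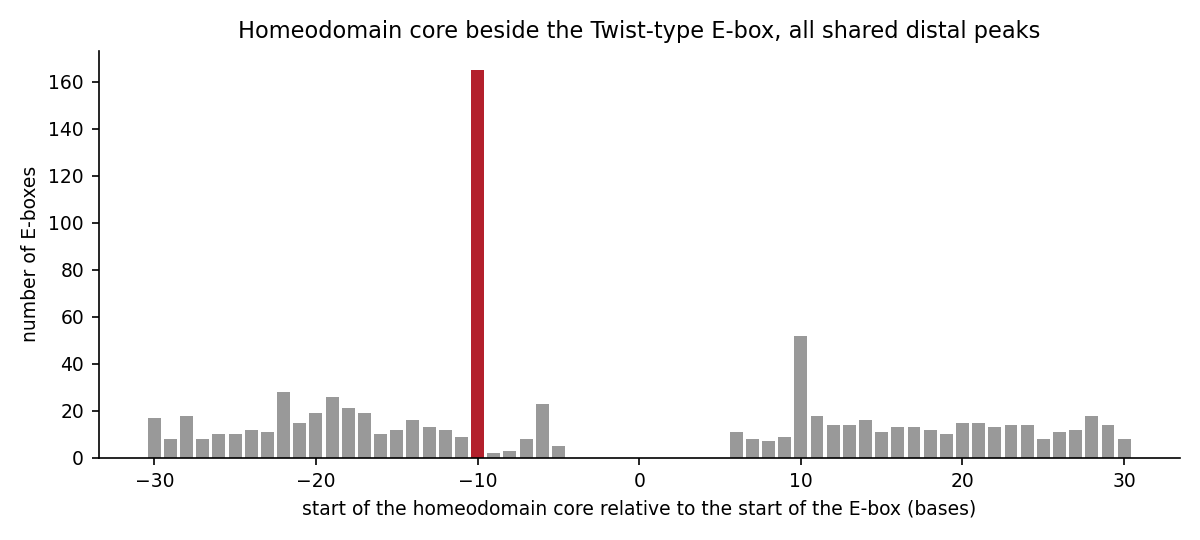
Number of Twist-type E-boxes (y axis) with a homeodomain core starting at each offset from the start of the E-box (x axis, bases, negative before it), over all shared distal peaks and both strands. The red bar, 165 sites at 10 bases before the E-box, stands above a median of 13, and offsets that would overlap the E-box were not scanned.

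The wider network of these factors was open as well. All 4 Id genes, the inhibitors of E-proteins, had a shared promoter peak, against 64.2% of all genes, and they had 9 to 26 shared distal peaks each. Id2 had promoter strengths of 108 and 140 and 26 distal peaks, where 17.2 would fall in its interval at the genome-wide density, and Id4 had 103 and 142 and 18, where 15.7 would fall. Id1 and Id3, in small intervals, had 9 where 0.80 would fall and 11 where 1.42 would fall. Of 17 tissue-specific bHLH partners, 15 had a shared promoter peak, and the exceptions were Ptf1a, a pancreas and neural factor, and Myf5, a muscle factor. Among them Hand2, which patterns the lower jaw, had 31 distal peaks, where 10.8 would fall, and promoter strengths of 60 and 102. Tcf21 had a weak promoter peak of 23 and 37 beside 16 distal peaks, where 7.39 would fall. The E-box repressors Snai1, Snai2, Zeb1 and Zeb2, which drive epithelial-to-mesenchymal transition, all had one, with Snai1 highest at 119 and 137. Of the homeodomain partners, Msx2, which acts with Twist1 in skull growth, had a shared promoter peak and 36 distal peaks, where 8.11 would fall, and Msx1 had one and 22, where 3.62 would fall. All 8 listed genes of craniosynostosis and limb signalling, among them the receptors Fgfr1, Fgfr2 and Fgfr3 and the ligand Jag1, had a shared promoter peak, and Fgfr2 stood highest in distal peaks with 25, where 11.1 would fall. Some listed genes had fewer distal peaks than would fall at that density. Zeb2 had 29 where 46.5 would fall, Zeb1 5 where 9.29 would and Snai2 2 where 3.79 would. Jag1 had 9 where 16.1 would fall, Cdh2 21 where 52.9 would and Atoh1 14 where 21.4 would. The remaining genes of these lists had more. Open promoters are common, so these counts describe the lists and set none of them apart.

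Over all strengths together, the replicates matched at the members much as they did elsewhere. Among the stronger peaks the matched share was lower at the members, a difference that was not tested. Of the 260 replicate 1 peaks nearest to the 5 genes, 118 (45.4%, exact 95% interval 39.2 to 51.7) were shared, against 41.1% of all peaks. In the other direction 115 of 298 (38.6%) were matched. By gene the replicate 1 share was 29 of 60 for Twist1, 17 of 39 for Twist2, 4 of 4 for Tcf3, 46 of 117 for Tcf4 and 22 of 40 for Tcf12. Strength separated matched from unmatched peaks. Above the median strength of the library 105 of 160 member peaks were shared (65.6%, 57.7 to 72.9), against 73.1% of all, which lies above the interval. Below it 13 of 100 were shared (13%, 7.11 to 21.2, against 9.79%). Because of the grid, 12 peaks missed the rule with 70 bp of overlap and 17 met it with 90 bp. The strongest peak missed in that way was beside the Twist2 start site, at 55 in replicate 1 and 88 in replicate 2. At the edge of the promoter window, the Twist2 peak 971 bp from its start site counted as promoter, and the Tcf4 peak at 1098 bp (39 and 77) and the Twist2 peak at 1160 bp (33 and 73) as distal. Of 211 replicate 1 hotspots nearest to the 5 genes 116 (55.0%) were shared, against 47.0% of all, and 100 of the shared ones were distal.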

How the data were processed

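The authors called peaks and hotspots library by library on mm10, per the notes deposited with the files. Aligner and caller are not given in the sources. The deposited value of a peak, called strength, was used as a score of unknown unit that ranks peaks within a library. The authors' value of a hotspot is −log10 q, between 1.3 and a ceiling of 100. Peaks on chromosomes 1 to 19 and X were kept, and 554 and 338 peaks elsewhere were left out.

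Each element was assigned to the nearest of 41135 protein-coding start sites of the basic GENCODE M21 annotation. Those within 1 kb were promoter elements and the others distal. A replicate 1 element was shared when a replicate 2 element overlapped it by 75 bp or more. Sequence came from RefSeq's GRCm38.p6 assembly, the same build as mm10. Shares carry exact (Clopper-Pearson) 95% binomial intervals, which cover counting error only.

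The members, the lists of genes and the rules were chosen with earlier results of these data known, and part of the list results is not reported here. No test was run, since 1 group of 2 libraries gives no contrast. Elements named singly were the shared promoter peaks, the shared peaks inside Hdac9 and, per gene, the 5 shared distal peaks with the lowest sum of strength ranks. The overlap, the peak set, the promoter window, the start sites, the motif window and each library were varied. The matching, the assignment and the motif search were tested on simulated data. Python 3.11.15, numpy 2.4.6, pandas 2.3.3, scipy 1.17.1 and matplotlib 3.10.9 were used.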

Additional observations from a re-analysis of the deposited data

How the results depend on the processing

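The 6 summary results were recomputed under 46 alternatives in all, and 28 stayed within 1.5 times a count or within the interval of a share. Counts of shared elements followed the definition of shared. With an overlap of at least 90% of a peak the 98 shared distal peaks became 22, while over all genes 62956 became 19624. The 29 inside Hdac9 became 6 and the share of member peaks matched fell to 10.8% (12.6% of all peaks). The number of the 5 genes with a shared promoter peak was 4, because the Twist1 peak overlapped by 130 bp. An overlap of 1 bp moved the matched share to 57.7% (48.9% of all peaks). With each library reduced to its 50000 strongest peaks, the counts were 28 and 9. Over all genes 21775 shared distal peaks were left of 62956. The matched share was 62.3% (exact 95% interval 49.8 to 73.7), against 74.1% of all, which lies above the interval. That interval, too, treats peaks as independent, and the difference was not tested. With hotspots at the ceiling of −log10 q the 100 shared distal hotspots became 20. Without 1 replicate every peak of the other counts: distal peaks ranged from 227 to 266, peaks inside Hdac9 from 83 to 94 and distal hotspots from 191 to 237, the promoter count stayed at 5, and the CAGATG share ranged from 16.7% to 23.3%. Matching replicate 2 peaks in replicate 1 gave 38.6%. With start sites of all annotated genes, noncoding ones included, 57 distal peaks, 54 distal hotspots and a matched share of 55.0% were left, and Twist1 kept 23 distal peaks, Twist2 5, Tcf4 19, Tcf12 9 and Tcf3 1. The comprehensive annotation and the joining of overlapping peaks, both chosen after seeing the data, gave 94 and 95 distal peaks.

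No paired analysis was possible because there was 1 group. The depth of the libraries is unknown, so that peaks missing from 1 library cannot be told apart from peaks too weak to be called at its depth. Nearest-gene assignment does not show the gene that an element acts on, and motif letters show no binding.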

Other observations

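The composite of TAATT and CAGATG, chosen after seeing the data, was also counted in distal peaks that the other library lacked. It was in 34 of 110500 unshared distal peaks of replicate 1 (0.0308%) and in 218 of 118364 of replicate 2 (0.184%), against 0.256% and 0.265% of the shared distal peaks of each. CAGATG alone was in 11.9% and 20.2% of the unshared distal peaks. The unshared peaks of replicate 1 thus held both less often than those of replicate 2.

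Wide shared hotspots, of at least 1000 bp in replicate 1, numbered 12 near the 5 genes. Of all replicate 1 hotspots, shared or not, 13 of 211 near the 5 genes and 10977 of 178464 over all genes were that wide, about the same share. At Twist1 the region 5310 bp downstream was a single hotspot of 2638 bp in replicate 1, whose best match in replicate 2 was 403 bp long with a −log10 q of 1.95.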
